A study of Mus musculus with 57 samples.

Results

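Tnfrsf12a, Map3k6, Syt12, E030018B13Rik and Ier3 are 5 of the 54307 genes in the deposited mouse liver table. They were chosen by their measured rise over vehicle: each was picked because its level was strongly higher with all or several of 7 liver toxicants, with no numerical limit set. Their differences from vehicle are therefore given as a description, without a test. The working description of the set, genes raised by every toxicant, held in every mouse for Map3k6 alone. It did not hold for E030018B13Rik, which lay at or near the vehicle level with carbon tetrachloride and galactosamine and in 3 of 6 acetaminophen mice.

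Tnfrsf12a encodes Fn14, the cell-surface receptor for the cytokine TWEAK (Tnfsf12). Fn14 is scarce in healthy liver and is known to be induced in injured hepatocytes and progenitor cells, where it recruits TRAF adaptors and activates NF-kB. Ier3 is an immediate early gene, a class transcribed within minutes of a stress or growth signal without new protein synthesis, and its product takes part in survival and MAP kinase signalling. Map3k6 encodes ASK2, a MAP kinase kinase kinase that pairs with ASK1 (Map3k5) in stress signalling to JNK and p38. Syt12 belongs to the synaptotagmins, membrane proteins of vesicle traffic, and is an unusual member that lacks the calcium-binding residues of the family. RefSeq lists E030018B13Rik as protein coding, and no role for it is given here.

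RNA was sequenced from the livers of 57 wild-type male C57BL/6JJcl mice, aged 6 weeks with 1 week of acclimatisation and fasted for 12 h before dosing, taken 24 h after dosing from a perfused outer left lateral lobe. By gavage, 4 mice received alpha-naphthyl isothiocyanate (ANIT), 6 acetaminophen (APAP), 7 4,4'-methylene dianiline (MDA) and 5 thioacetamide (TAA), and 13 vehicle mice received 0.5% methylcellulose (Ctrl). Intraperitoneally, 7 mice received carbon tetrachloride (CCl4), 4 galactosamine (GAL) and 2 vehicle mice 0.9% saline (CIP). Intravenously, 7 mice received concanavalin A (ConA) and 2 vehicle mice 0.9% saline (CIV). ANIT and MDA are known as bile duct toxicants, APAP, TAA, CCl4 and GAL as hepatocyte toxicants, and ConA as a lectin that injures the liver through immune cells. The labels name corn oil among the vehicles without saying which compounds it carried, and no sample analysed here is a corn oil control. They give a volume per body weight and no amount of compound, so the strength of the doses cannot be compared. Each mouse is 1 sample, and replicate numbers in the labels are used below as names of mice.

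The promoters are shown because the genes, all picked for a rise over vehicle, differ in the motifs they hold. RefSeq promoter sequences (build GRCm38.p6) matched 4 of the 5 genes. The 250 bases before each start are printed 5′ to 3′ on the gene's strand, with capitals marking matches to the 7 motifs searched.
Tnfrsf12a: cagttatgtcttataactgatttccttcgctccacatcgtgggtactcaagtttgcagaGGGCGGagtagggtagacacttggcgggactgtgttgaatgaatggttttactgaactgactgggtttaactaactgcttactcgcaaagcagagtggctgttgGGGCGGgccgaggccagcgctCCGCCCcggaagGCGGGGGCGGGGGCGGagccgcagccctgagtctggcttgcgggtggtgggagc
Ier3: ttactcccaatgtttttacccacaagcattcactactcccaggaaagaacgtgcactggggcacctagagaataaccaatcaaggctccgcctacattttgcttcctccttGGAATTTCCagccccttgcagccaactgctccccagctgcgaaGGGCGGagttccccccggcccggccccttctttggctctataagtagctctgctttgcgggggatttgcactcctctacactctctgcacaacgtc
Map3k6: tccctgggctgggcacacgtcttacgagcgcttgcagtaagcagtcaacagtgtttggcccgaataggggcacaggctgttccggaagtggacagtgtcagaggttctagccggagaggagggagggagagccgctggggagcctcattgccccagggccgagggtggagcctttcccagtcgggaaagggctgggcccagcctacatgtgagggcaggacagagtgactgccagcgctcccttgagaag
E030018B13Rik: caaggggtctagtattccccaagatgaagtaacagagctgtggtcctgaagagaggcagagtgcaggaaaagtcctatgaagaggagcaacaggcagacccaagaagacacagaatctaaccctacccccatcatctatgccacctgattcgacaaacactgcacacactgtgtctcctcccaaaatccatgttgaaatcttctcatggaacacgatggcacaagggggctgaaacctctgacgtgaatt
These stretches are chr17:23677450-23677699 on the minus strand for Tnfrsf12a, chr17:35821463-35821712 on the plus strand for Ier3, chr4:133240568-133240817 on the plus strand for Map3k6 and chr7:63916607-63916856 on the plus strand for E030018B13Rik.

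The motifs were searched on both strands as AP-1 (TGANTCA), CRE (TGACGTCA), kB (GGNNTTTCC), TEAD (GGAATG), ATF4 (TGATGCAA), EGR (GCGNGGGCG) and SP1 (GGGCGG). Of all 32851 promoter stretches of the same length, 6.75% held AP-1, 1.55% CRE, 4.93% kB, 12.6% TEAD, 0.791% ATF4, 4.70% EGR and 32.7% SP1. Tnfrsf12a had 2 EGR matches and 5 SP1 matches. The EGR matches lay 54 to 46 and 48 to 40 bases before the start, overlapping each other and 2 of the SP1 matches. Ier3 had 1 kB match, GGAATTTCC, from 139 to 131 bases before the start, and 1 SP1 match. The Map3k6 and E030018B13Rik stretches held none of the 7 motifs. Their GC content was 62.8% and 48.8%, against 58.8% for Tnfrsf12a, 54.4% for Ier3 and a median of 52.4% over all stretches. A match describes letters in this window and shows no binding.

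Totals per library ranged from 13826343 to 35075809 estimated counts, and mitochondrial genes took 5.11% to 39.3% of them. ConA mice 2, 4 and 3 had the highest mitochondrial shares, 39.3%, 26.3% and 25.7%, and the other 4 ConA libraries, at 14.6% to 24.4%, lay within the range of other groups, which reached 25.4%. ConA mice 2 and 3 also had the lowest TMM factors, 0.477 and 0.577, the next being 0.607 in an MDA mouse. The GAL libraries had the highest TMM factors, up to 1.78. Values below are CPM, estimated counts per unit of library size as edgeR computes it (cpm) after TMM scaling. No 2 libraries held identical values. Summed over 7 hepatocyte markers, the lowest library, a CCl4 mouse, still held 20952 CPM. Scaling by library totals in place of TMM moved the median log2 difference of all genes from vehicle by -0.22 with ANIT, 0.16 with APAP, 0.43 with CCl4, 0.76 with GAL and -0.59 with ConA. The share of higher among all called genes then went from 49.5% to 23.7% with ANIT, from 54.3% to 72.5% with APAP, from 53.6% to 80.6% with CCl4, from 44.9% to 86.7% with GAL and from 49.3% to 22.7% with ConA.

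Tnfrsf12a, the TWEAK receptor, was present in every mouse. In the 13 Ctrl mice it ranged from 5.77 to 18.6 CPM with a median of 8.54. The CIP mice had 6.77 and 6.49 CPM and the CIV mice 7.81 and 4.86 CPM. Ctrl mice 15, 16, 17 and 18, at 9.97, 17.9, 11.4 and 18.6 CPM, lay above every other vehicle mouse, the next having 9.32 CPM. The summed level of 7 monocyte and recruited macrophage markers was 32.2, 21.7 and 24.2 CPM in Ctrl mice 15, 17 and 18, 4.69 CPM in mouse 16 and at most 9.50 CPM in the other vehicle mice. Sums of 7 neutrophil markers were 34.6 and 61.1 CPM in Ctrl mice 17 and 18, 12.1 and 9.61 CPM in mice 15 and 16 and at most 16.4 CPM in the other vehicle mice. For 8 cholangiocyte and progenitor markers the sums were 80.3 and 116 CPM in mice 17 and 18, above every other vehicle mouse. The part of these cells in the levels was not tested. TAA gave the highest levels, 450, 424, 411, 341 and 435 CPM. ConA mice ranged from 126 to 404 CPM (median 150) and CCl4 mice from 125 to 180 CPM (median 141). The GAL mice had 121, 143, 143 and 148 CPM. With these 4 compounds every mouse lay above every vehicle mouse. APAP mice ranged from 37.2 to 328 CPM (median 122) and MDA mice from 16.4 to 140 CPM (median 49.6). The ANIT mice had 46.3, 33.3, 167 and 17.2 CPM. All APAP mice exceeded the vehicle range, while ANIT mouse 4 and MDA mouse 1 fell inside it, below Ctrl mice 16 and 18 and above the other 15 vehicle mice. The fitted log2 difference from the vehicle of the same route ran from 2.79 ± 0.39 (SE) with ANIT to 5.46 ± 0.24 with TAA.

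Map3k6, the ASK2 kinase, was the gene whose treated mice lay above every vehicle mouse with all 7 compounds. Ctrl mice ranged from 0.151 to 0.888 CPM (median 0.323), the CIP mice had 0.358 and 0.302 CPM and the CIV mice 0.292 and 0.374 CPM. Vehicle livers therefore held few estimated counts of it, at most 15.8 in a mouse. ConA mice ranged from 11.1 to 28.2 CPM (median 18.4) and the TAA mice had 9.20, 7.43, 10.6, 12.3 and 12.5 CPM. CCl4 mice ranged from 4.90 to 8.91 CPM (median 6.12), and the GAL mice had 3.08, 2.88, 4.35 and 3.36 CPM. The spread within each of these groups was small beside its distance from vehicle. APAP mice ranged from 1.84 to 29.9 CPM (median 6.89) and MDA mice from 1.64 to 5.73 CPM (median 3.16). The ANIT mice were close together at 1.99, 2.23, 2.31 and 2.41 CPM. The lowest treated mouse of all, in the MDA group, was still above the highest vehicle mouse, Ctrl 4. The fitted log2 difference ran from 2.52 ± 0.33 (SE) with ANIT to 5.92 ± 0.55 with ConA.

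Syt12, the synaptotagmin, ranged from 0.216 to 1.38 CPM in Ctrl mice (median 0.314). The CIP mice had 0.179 and 0.377 CPM and the CIV mice 1.78 and 0.405 CPM. CIV mouse 7 was thus the highest of the vehicle mice. ConA mice ranged from 5.27 to 25.3 CPM (median 10.9) and CCl4 mice from 4.00 to 10.0 CPM (median 6.78). The TAA mice had 5.90, 13.6, 7.29, 4.37 and 12.0 CPM, and the GAL mice 2.72, 2.46, 2.68 and 2.55 CPM. In these 4 groups all mice lay above all 17 vehicle mice. APAP mice ranged from 1.04 to 16.1 CPM (median 5.45), with mouse 6 inside the Ctrl range. MDA mice ranged from 1.67 to 5.53 CPM (median 2.34) and the ANIT mice had 4.77, 1.77, 5.12 and 2.35 CPM. MDA mouse 1 and ANIT mouse 2 were above every Ctrl mouse and below CIV mouse 7. Fitted log2 differences from the vehicle of the same route ran from 2.38 ± 0.38 (SE) with MDA to 4.71 ± 0.53 with CCl4. Without CIV mouse 7 the ConA difference went from 3.60 to 5.04. Set against all 17 vehicle mice instead of the 2 of the route, the difference went from 4.71 to 3.40 with CCl4, from 3.24 to 1.98 with GAL and from 3.60 to 4.46 with ConA, which was then the highest.

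E030018B13Rik was listed at 0 in 11 of the 17 vehicle mice, and the highest vehicle mouse had 0.302 CPM. ConA mice ranged from 15.8 to 40.6 CPM (median 26.3) and MDA mice from 2.96 to 18.7 CPM (median 7.98). The ANIT mice had 9.61, 14.3, 10.7 and 21.7 CPM, and the TAA mice 4.97, 2.43, 1.79, 1.04 and 2.23 CPM. With these 4 compounds no treated mouse overlapped a vehicle mouse. CCl4 mice ranged from 0 to 0.311 CPM (median 0.147), and the GAL mice had 0.107, 0.453, 0.226 and 0.112 CPM. APAP mice 1, 8 and 11 had 18.2, 4.04 and 2.05 CPM, while mice 2, 4 and 6 had 0.0379, 0 and 0.0769 CPM. In APAP mice 2, 4 and 6 the values overlapped those of vehicle mice. So did all CCl4 mice but mouse 6, at 0.311 CPM, and all GAL mice but mouse 4, at 0.453 CPM. The gene did not pass the filter on low values against vehicle with APAP, CCl4 or GAL. Where it did, the fitted log2 difference was 8.40 ± 0.57 (SE) with ANIT, 7.89 ± 0.55 with MDA, 5.94 ± 0.69 with TAA and 8.72 ± 0.82 with ConA. These sizes rest on at most 4.40 estimated counts in a vehicle mouse. Without CIV mouse 8, the only one of the CIV mice with a value above 0, the ConA difference went from 8.72 to 11.8, a size that depends on the prior count because the remaining CIV mouse is at 0.

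In the GENCODE M21 annotation E030018B13Rik lies inside the span of Klf13 on the opposite strand, and Syt12 overlaps A930001C03Rik on the opposite strand. Only the spans of genes were compared, not their exons. The library kit keeps strand, but whether counting used it is not given in the sources used here. It is therefore not known whether reads of the overlapping partners were mixed. Klf13, a zinc-finger transcription factor, averaged 10.0 ± 3.82 CPM (SD, n = 13) in Ctrl mice. It averaged 8.86 ± 1.75 (n = 4) with ANIT and 9.84 ± 2.33 (n = 7) with MDA, groups in which E030018B13Rik averaged 14.1 and 9.64 CPM. Klf13 was called higher with ConA (log2 0.94 ± 0.23 SE, edgeR adjusted p = 0.0103) and lower with CCl4 (-0.71 ± 0.23, adjusted p = 0.0399), and the other 5 compounds passed in neither direction. A930001C03Rik, a long non-coding RNA, was called with GAL alone, where it was higher (log2 1.20 ± 0.23 SE, adjusted p = 0.0136).

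Ier3, the immediate early gene, ranged widely between vehicle mice. Ctrl mice ranged from 0.074 to 4.43 CPM (median 0.644), with mice 16 and 18 highest at 2.23 and 4.43 CPM, as they were for Tnfrsf12a. The CIP mice had 0.447 and 0.377 CPM and the CIV mice 1.46 and 0.842 CPM. ConA mice ranged from 199.9 to 291 CPM (median 245), and the TAA mice had 67.4, 52.1, 73.9, 161 and 63.2 CPM. CCl4 mice ranged from 15.5 to 35.9 CPM (median 21.9). Every mouse of these 3 groups lay above every vehicle mouse. The GAL mice, at 3.54, 3.53, 4.45 and 2.52 CPM, lay above both CIP mice and mostly below Ctrl mouse 18. ANIT mice had 4.77, 3.22, 5.97 and 1.98 CPM, and MDA mice ranged from 2.85 to 18.9 CPM (median 7.95). APAP mice ranged from 3.07 to 209 CPM (median 27.3). With ANIT, MDA and APAP some mice overlapped the Ctrl range. The fitted log2 difference ran from 1.89 ± 0.59 (SE) with ANIT to 7.71 ± 0.39 with ConA. Against all 17 vehicle mice instead of CIP, the difference went from 5.78 to 4.47 with CCl4 and from 3.00 to 1.74 with GAL.

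**Figure D1:**
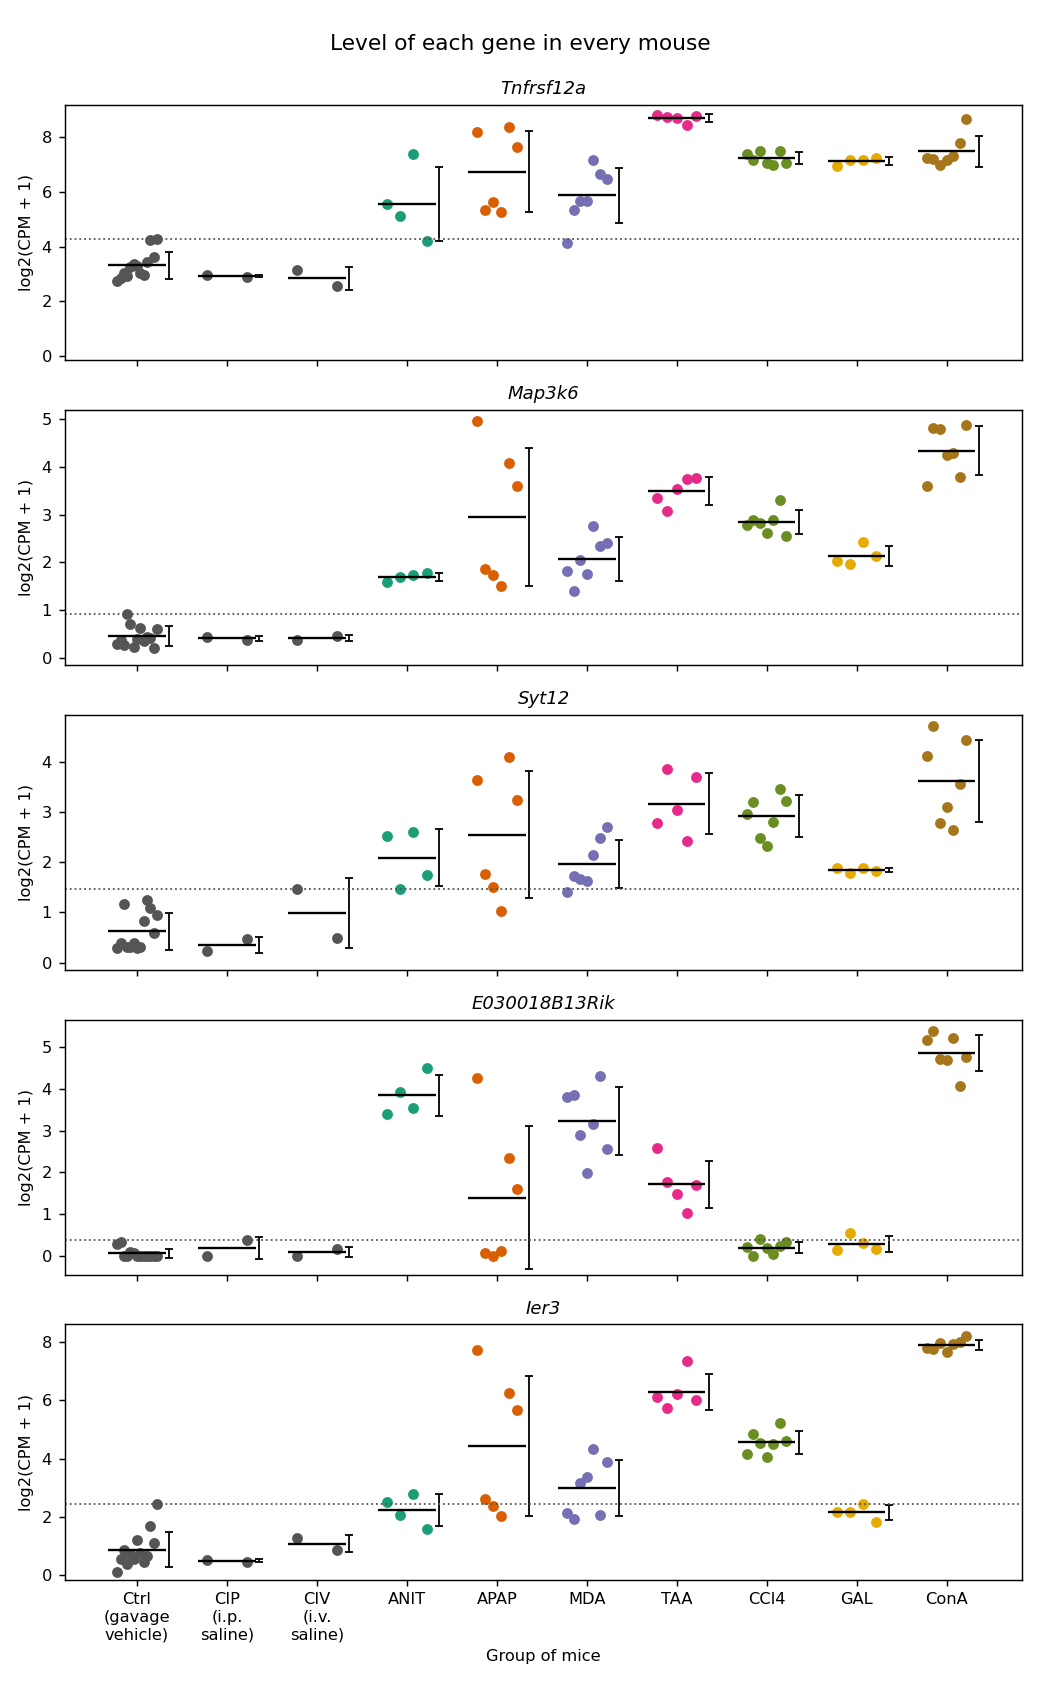
Level of each gene in every mouse, as log2(CPM + 1), by group; lines are means of these log2 values, bars beside them are SDs and the dotted line is the highest of the 17 vehicle mice. Map3k6 is above that line in all 40 treated mice, whereas E030018B13Rik is near 0 with CCl4, with GAL and in 3 APAP mice.

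Counted over the 5 genes, all treated mice exceeded all vehicle mice of the same route for 3 genes with ANIT, 2 with APAP, 3 with MDA, 5 with TAA, 4 with CCl4, 4 with GAL and 5 with ConA. The share of all tested genes that did so was 4.04% with ANIT, 2.07% with APAP, 1.75% with MDA, 10.2% with TAA, 22.1% with CCl4, 28.2% with GAL and 19.2% with ConA, the last 3 against 2 vehicle mice each. Against all 17 vehicle mice the counts were 2, 2, 2, 5, 4, 3 and 5 genes. The matching shares of all genes were 3.20%, 1.83%, 1.43%, 9.21%, 9.18%, 11.8% and 12.7%. As the genes were picked on these contrasts, nothing is read from the counts. Of 12834 genes tested with all 7 compounds, 2 had a smallest log2 difference at least as large as that of Tnfrsf12a, counting Tnfrsf12a itself. The same count was 6 for Map3k6, 8 for Syt12 and 19 for Ier3.

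The acetaminophen group was split in the same way for all 5 genes. APAP mice 1, 8 and 11 had the 3 highest values of each gene and mice 2, 4 and 6 the 3 lowest. For Ier3 these were 209, 74.2 and 49.5 CPM against 5.15, 4.17 and 3.07 CPM. For Tnfrsf12a they were 287, 328 and 196 CPM against 39.5, 48.2 and 37.2 CPM. Map3k6 stood at 29.9, 15.8 and 11.2 CPM in the high mice and at 2.62, 2.31 and 1.84 CPM in the low ones. In the low mice Map3k6 and Tnfrsf12a were still above every vehicle mouse, and E030018B13Rik was not. Summed over the list, the level of 7 neutrophil markers was 39.0, 201 and 273 CPM in mice 1, 8 and 11 and 13.2, 20.1 and 18.3 CPM in mice 2, 4 and 6. Other marker sums also separated these mice. For 5 proliferation markers the sums were lower, 3.08, 2.64 and 2.67 CPM against 16.5, 7.49 and 7.84 CPM. Sums of 6 sinusoidal endothelial markers were 159.9, 203 and 148 CPM against 103, 126 and 118 CPM, and those of 8 cholangiocyte and progenitor markers 89.4, 105 and 219.9 CPM against 86.4, 77.6 and 64.9 CPM. Sums of the other 6 marker lists overlapped between the high and the low mice. The part of these cells in the split was not tested. In bulk RNA, more cells of a type and more RNA per cell cannot be told apart.

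MDA mice did not line up in that way for all 5 genes. Mice 7, 8 and 12 had the 3 highest values of Tnfrsf12a, Map3k6 and Syt12, and mice 1 to 4 the lowest. For Tnfrsf12a these were 140, 100 and 88.1 CPM against at most 49.6 CPM. Map3k6 stood at 5.73, 4.04 and 4.28 CPM against at most 3.16 CPM. Syt12 stood at 3.44, 4.58 and 5.53 CPM against at most 2.34 CPM. Ier3 and E030018B13Rik did not split between these mice. The highest mouse for Tnfrsf12a, Map3k6 and Ier3 was MDA 7, with 140, 5.73 and 18.9 CPM. MDA mouse 8 was highest for E030018B13Rik at 18.7 CPM and had 3.17 CPM of Ier3, the second lowest of 7. MDA mouse 4 was lowest for E030018B13Rik at 2.96 CPM and had 9.44 CPM of Ier3, the third highest. MDA mice 7, 12, 4 and 3 had the highest Ier3, with 18.9, 13.8, 9.44 and 7.95 CPM, and in the same order for the neutrophil sum, with 133, 119, 36.3 and 33.3 CPM. In the other 3 MDA mice that sum was 8.42 to 22.4 CPM, and its part in Ier3 was not tested.

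**Figure D2:**
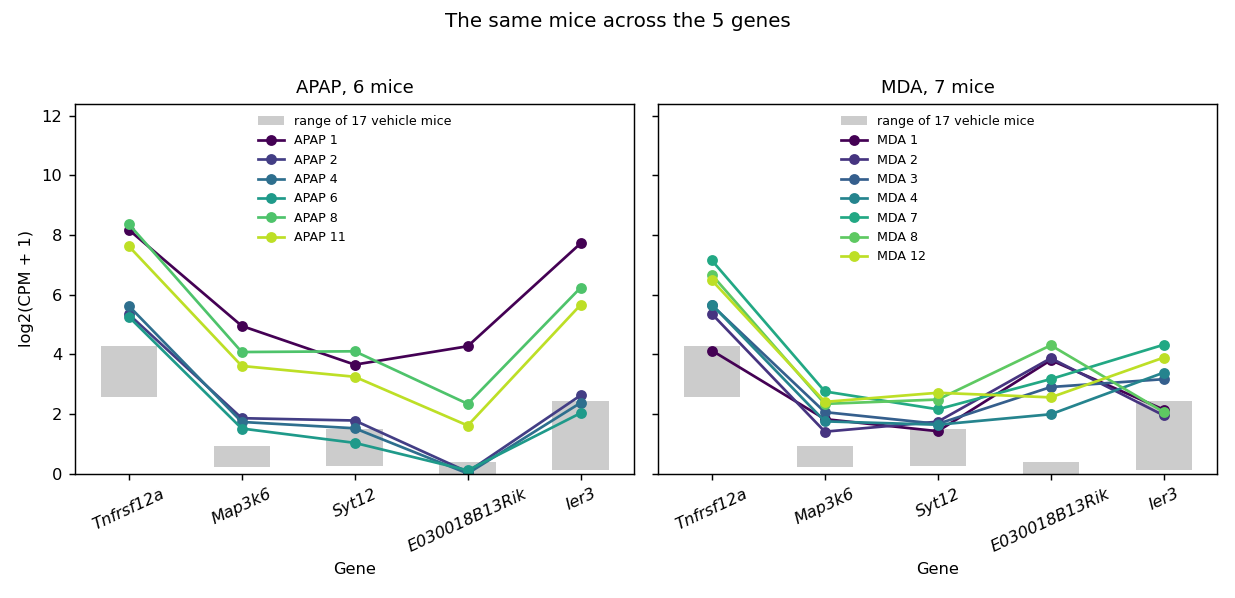
Levels of the 5 genes as log2(CPM + 1) in each APAP mouse (left) and each MDA mouse (right), 1 line per mouse, with grey bars for the range of the 17 vehicle mice; heights of different genes are not compared. APAP mice 1, 8 and 11 run above mice 2, 4 and 6 at all 5 genes, while the MDA lines cross.

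The genes were chosen on differences from vehicle and not on differences between compounds, but the same treated values entered that choice. Differences between compounds were tested over all 40 treated mice in 1 fit (edgeR, adjusted p under 0.05 called). Of the 21 pairs of compounds, Ier3 differed in 14, Map3k6 in 11, Syt12 in 8 and Tnfrsf12a in 6. E030018B13Rik entered the fit through the groups in which it was high, so its differences from CCl4, GAL and APAP are a description only. Among the 4 compounds with which it passed the filter against vehicle, 2 of 6 pairs were called. The share of all 16758 genes called was 17.4% for ANIT with APAP, 0.125% with MDA, 24.6% with TAA, 28.0% with CCl4, 39.0% with GAL and 42.8% with ConA. For APAP it was 16.6% with MDA, 9.33% with TAA, 23.2% with CCl4, 32.1% with GAL and 42.0% with ConA. For MDA it was 26.8% with TAA, 32.5% with CCl4, 41.3% with GAL and 48.9% with ConA. TAA differed from CCl4 in 27.2% of genes, from GAL in 27.8% and from ConA in 28.1%. The remaining shares were 29.8% for CCl4 with GAL, 52.0% for CCl4 with ConA and 46.7% for GAL with ConA. The median over the pairs was 28.1%, against 66.7% of pairs for Ier3 and 28.6% for Tnfrsf12a. A choice of genes that rise strongly with several compounds can favour genes that differ between compounds, so nothing is read from these shares. Without ANIT mouse 3 the count for Tnfrsf12a was 11. The count for Syt12 was 4 without GAL mouse 4 or GAL mouse 8, and 5 without ANIT mouse 1 or 4, ConA mouse 2, MDA mouse 2, or GAL mouse 2 or 7.

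In pairs given by different routes the compound and the route cannot be told apart, and the vehicle that carried each compound is not given in the sources used here. When each compound was first set against the vehicle of its route and the differences were compared, the counts of 21 were 8 for Ier3, 6 for Map3k6 and 1 for Syt12. The range of the 17 vehicle mice is given above for each gene.

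By mean CPM Ier3 ran ConA (239), TAA (83.6), APAP (57.6), CCl4 (23.3), MDA (8.51), ANIT (3.98) and GAL (3.51). No 2 neighbours in this order differed beyond the threshold, while ConA exceeded CCl4 by log2 3.41 ± 0.62 (SE, edgeR adjusted p = 1.86e-05) and GAL by 6.12 ± 0.91 (adjusted p = 1.09e-06). TAA exceeded ANIT by log2 4.39 ± 0.85 (SE, adjusted p = 0.000243). The APAP mean was 27.2 CPM without mouse 1, in the same place in the order. Between ANIT and GAL the log2 difference was 0.16, with a 95% interval from -1.39 to 1.72.

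E030018B13Rik followed another order, ConA (29.2 CPM), ANIT (14.1), MDA (9.64), APAP (4.08), TAA (2.49), GAL (0.224) and CCl4 (0.148). Without mouse 1 the APAP mean was 1.24 CPM, below TAA, and without mouse 4 the GAL mean was 0.148 CPM. Neighbours from ConA to MDA did not differ beyond the threshold. ANIT exceeded TAA by log2 2.51 ± 0.89 (SE, edgeR adjusted p = 0.0358), and ConA exceeded TAA by 3.62 ± 0.88 (adjusted p = 0.00199). As a description, the fitted difference of MDA from CCl4 was log2 5.96. For ANIT less TAA the log2 difference of Ier3 was -4.39 ± 0.85.

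Map3k6 ran ConA (20.2 CPM), APAP (10.6), TAA (10.4), CCl4 (6.26), GAL (3.42), MDA (3.39) and ANIT (2.24). Syt12 ran ConA (13.1 CPM), TAA (8.64), APAP (6.91), CCl4 (6.87), ANIT (3.50), MDA (3.12) and GAL (2.60). In neither order did neighbours differ beyond the threshold. Without mouse 1 the APAP mean of Map3k6 was 6.75 CPM, below TAA, and that of Syt12 was 5.98 CPM, below CCl4. The difference between MDA and GAL in Map3k6 was log2 -0.01, with a 95% interval from -0.95 to 0.92.

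Tnfrsf12a ran TAA (412 CPM), ConA (192), APAP (156), CCl4 (151), GAL (139), MDA (69.1) and ANIT (66.0), again with no neighbours that differed beyond the threshold. Without mouse 3 the ANIT mean was 32.3 CPM. All 6 of its called pairs involved TAA or ConA. TAA exceeded ANIT by log2 2.64 ± 0.61 (SE, edgeR adjusted p = 0.00173) and GAL by 1.55 ± 0.58 (adjusted p = 0.0435). ConA exceeded MDA by log2 1.52 ± 0.46 (SE, adjusted p = 0.00604). TAA and ConA themselves differed by log2 1.05, with a 95% interval from 0.07 to 2.04 and an adjusted p of 0.101.

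**Figure D3:**
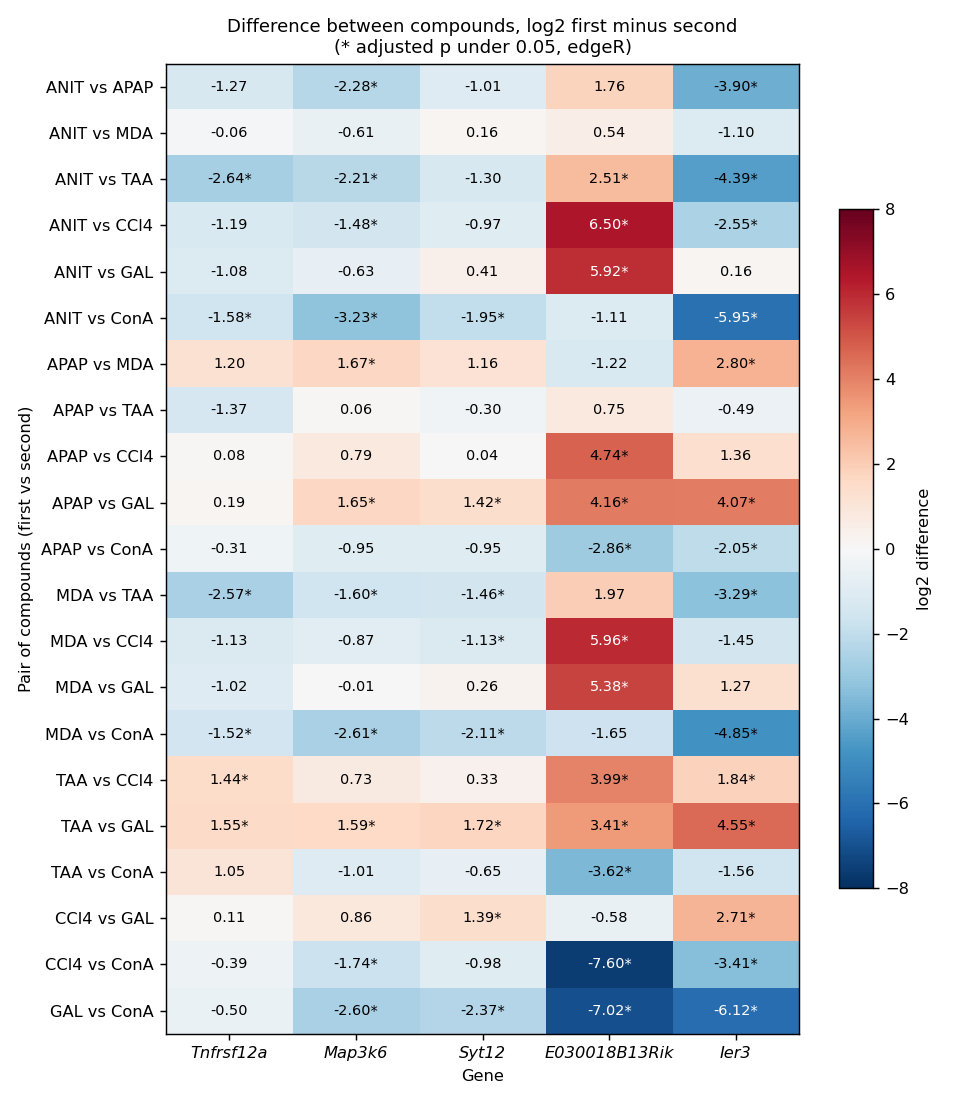
Log2 difference, first compound minus second, of each gene in each of the 21 pairs of compounds; red is higher in the first, and an asterisk marks an edgeR adjusted p under 0.05. E030018B13Rik is red for ANIT, APAP, MDA and TAA against CCl4 and GAL, with differences of 3.41 to 6.50 that are a description, since the gene is near 0 in those groups.

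The mean of the bile duct toxicants ANIT and MDA was set against that of APAP and TAA, all given by gavage. The share of all genes called was 34.1%. Lower with ANIT and MDA were Ier3, by log2 -3.59 ± 0.53 (SE, edgeR adjusted p = 2.56e-06), Map3k6 by -1.94 ± 0.34 (2.96e-05), Tnfrsf12a by -1.92 ± 0.38 (0.000181) and Syt12 by -1.23 ± 0.37 (0.00834). The fitted difference of E030018B13Rik was log2 1.86, given as a description because the APAP mice at 0 or near it enter it.

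ConA was set against the mean of the other 6 compounds, a contrast in which 51.2% of all genes were called. Ier3 was higher with ConA by log2 3.99 ± 0.37 (SE, edgeR adjusted p = 4.61e-11), Map3k6 by 2.02 ± 0.27 (1.04e-07) and Syt12 by 1.50 ± 0.31 (0.000116). Tnfrsf12a differed by log2 0.54 ± 0.34 (adjusted p = 0.182), and by 0.71 without ANIT mouse 3, where it fell just inside the threshold. E030018B13Rik had a fitted difference of 3.98, as a description. With library totals in place of TMM the log2 differences were 3.27 for Ier3, 1.31 for Map3k6 (adjusted p = 0.000156), 0.73 for Syt12 (adjusted p = 0.0604) and -0.12 for Tnfrsf12a (adjusted p = 0.806). Syt12 measured from the vehicle of each route stood at 0.19 (adjusted p = 1). Without ConA mice 2, 3 and 4, a choice made after the data were seen, the differences were 4.02 for Ier3, 1.93 for Map3k6, 1.24 for Syt12 (adjusted p = 0.0103) and 0.78 for Tnfrsf12a (adjusted p = 0.146).

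Vehicle groups were compared with each other, which the choice of genes had not used. None of the 4 genes that could be tested was called between CIP and Ctrl or between CIV and Ctrl with edgeR, where 0.0131% and 0.0263% of all genes were called. DESeq2 also called 0, and 0 had an unadjusted p under 0.05, the smallest being 0.179. The log2 difference of Ier3 was -1.34 ± 1.05 (SE) between CIP and Ctrl and 0.13 ± 0.90 between CIV and Ctrl. With 2 saline mice a group, differences of this size were not detectable.

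Whether the genes varied together between mice of a group was tested on log2(CPM + 1) less the group mean. Over all 40 treated mice 7 of the 10 pairs of genes passed (permutation within groups, adjusted over 10 pairs), but the APAP mice fell into 2 clusters, so pooled correlations are not given. The test was repeated without the 6 APAP mice, a choice made after the data were seen. Over the other 34 mice 3 of 10 pairs passed. Tnfrsf12a and Syt12 had r above 0 (r = 0.50, rho = 0.54, permutation p of r = 0.00324, adjusted p = 0.0277), as did Map3k6 and Ier3 (r = 0.48, rho = 0.39, permutation p of r = 0.00832, adjusted p = 0.0277). By rank the second of these did not pass (permutation p of rho = 0.0397, adjusted p = 0.132), while Tnfrsf12a with Syt12 did (adjusted p = 0.017). E030018B13Rik and Ier3 also passed, but 11 of the 34 mice, those of CCl4 and GAL, had E030018B13Rik at or near 0. Without them, a choice also made after the data were seen, r was -0.68 and rho -0.77 over 23 mice (permutation p of r = 0.00526, adjusted p = 0.0263, and 0.0072 by rank). Over the same 23 mice Tnfrsf12a and Syt12 passed (r = 0.54, permutation p = 0.00321, adjusted p = 0.0263) and Map3k6 and Ier3 did not (r = 0.45, permutation p = 0.0387, adjusted p = 0.0967). Among mice numbered 1 to 4 the number of pairs that passed was 2, and among mice with higher numbers it was 3, APAP mice included. Leaving out the 2 mice farthest from the median of the first gene of each pair left 4 of 10 over the treated mice. When those 2 mice were left out of the set without APAP, 0 of 10 pairs passed after adjustment, while r of the 3 pairs moved little. There r was 0.46 for Tnfrsf12a and Syt12 (permutation p = 0.0229, adjusted p = 0.115, without ANIT mouse 3 and MDA mouse 1). It was 0.40 for Map3k6 and Ier3 (permutation p = 0.0421, adjusted p = 0.14, without ConA mouse 2 and MDA mouse 7). For E030018B13Rik and Ier3 over the 23 mice, without MDA mice 4 and 8, it was -0.67 (permutation p = 0.00554, adjusted p = 0.0554, and 0.019 by rank).

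**Figure D4:**
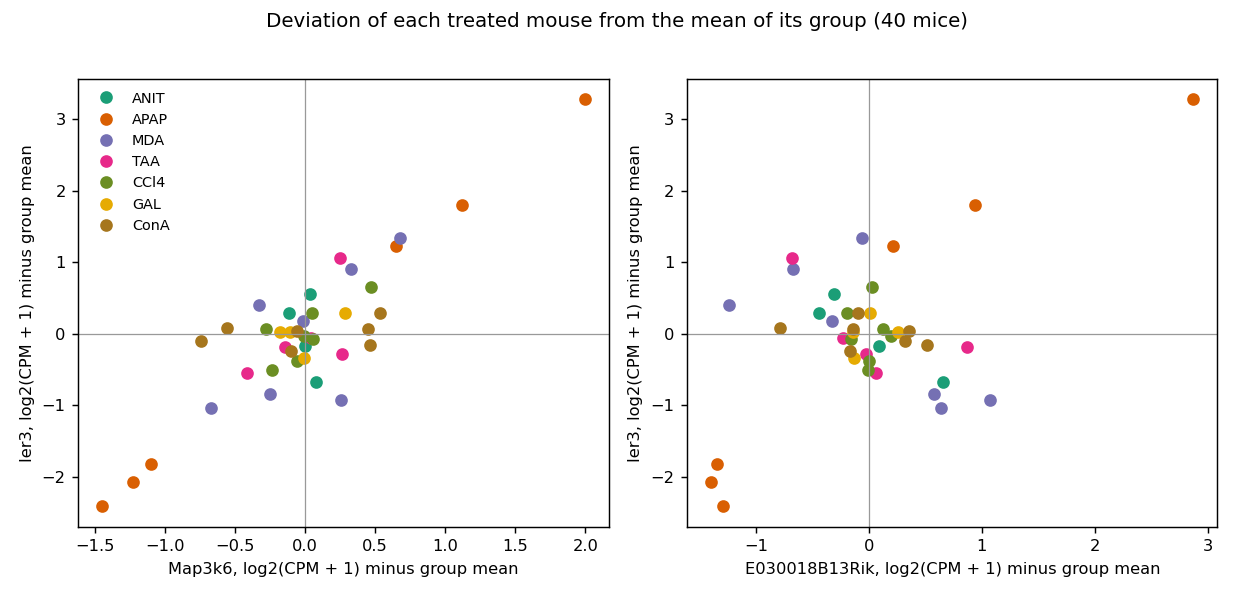
Deviation of each of the 40 treated mice from its group mean in log2(CPM + 1), for Map3k6 and Ier3 (left) and for E030018B13Rik and Ier3 (right), coloured by compound. The APAP mice lie at both ends of each plot, and the CCl4 and GAL mice lie near 0 on the horizontal axis of the right plot. Among the 34 mice other than APAP r was 0.48 on the left, and among the 23 of ANIT, MDA, TAA and ConA it was -0.68 on the right.

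The genes whose levels over all 57 mice were most like each member were listed among 12243 genes that averaged 1 CPM or more. The mice share groups, so r is a description. Tnfrsf12a was closest to Tubb6 (r = 0.95), a beta tubulin, Dusp5 (0.93), a MAP kinase phosphatase, and Slc12a4 (0.92), a potassium chloride cotransporter. Map3k6 and Ier3 were close to each other (0.95) and to Plaur (0.95 for both), the urokinase receptor. Hmga1 (0.94), a chromatin protein, completed the list for Map3k6, and Klf6 (0.95), a transcription factor, that for Ier3. Syt12 was closest to Mthfd1l (0.91), a mitochondrial folate enzyme, then Map3k6 (0.90) and Slc12a4 (0.90). E030018B13Rik was closest to Gde1 (0.91), a glycerophosphodiesterase, Gm27252 (0.91) and Scara5 (0.90), a ferritin receptor.

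Gm27252, a long non-coding RNA, is also the annotated neighbour of E030018B13Rik on 1 side. Its mean was 1.76 CPM in vehicle mice and 10.3 CPM in treated mice. Next to Ier3 lies Flot1, a membrane raft protein called higher with 6 compounds, and next to Syt12 lies 2010003K11Rik, called higher with 5. Neighbours of the other 2 genes went down or passed in neither direction: Sytl1 beside Map3k6 was called lower with 5 compounds, Hcfc1r1 beside Tnfrsf12a with 4 and Cldn6, on its other side, with 2. A930001C03Rik, the other neighbour of Syt12, was called higher with 1 compound.

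The other genes of each pathway or family were tested against the vehicle of the same route with edgeR. Higher calls made up 14.0% of all tested genes with ANIT, 17.3% with APAP, 17.4% with MDA, 26.4% with TAA, 18.0% with CCl4, 12.8% with GAL and 16.8% with ConA. Lower calls made up 14.2%, 14.6%, 16.4%, 24.0%, 15.6%, 15.7% and 17.3%. ANIT, APAP, MDA and TAA share the Ctrl mice and CCl4 and GAL the CIP mice, so their calls are not independent. With library totals in place of TMM, 45 of the 281 calls over the 5 lists were lost, 11 of 30 with ANIT, 11 of 53 with ConA and 8 of 35 with CCl4 among them. Some called genes reached the filter's level only with the help of the side on which they were high, and had to differ to be tested at all. Of the higher calls these were 1 of 54 in the TWEAK list, 19 of 44 among TNF receptors, 2 of 33 among ASK and stress kinases and 13 of 86 among immediate early genes, and nothing is read from them. Of the lower calls they were 1 of 4, 2 of 15 and 1 of 11 in the first 3 of these lists and 13 of 18 among synaptotagmins.

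The TWEAK pathway list held 19 genes, from the ligand to TRAF adaptors and NF-kB subunits, and all were tested with every compound. Higher calls numbered 7 with ANIT, 10 with APAP, 9 with MDA, 9 with TAA, 5 with CCl4, 3 with GAL and 11 with ConA, and lower calls 4 in all. The median log2 difference of the list was 1.82 with ConA, against 0.03 over all genes, and 0.23 with CCl4, against 0.10. The ligand Tnfsf12 was called with APAP alone, where it was higher (log2 0.67 ± 0.15 SE). In the other 6 its log2 difference lay between -0.65 and 0.28. Map3k14, the kinase NIK of the non-canonical NF-kB pathway, rose with 6 compounds, by log2 0.89 ± 0.32 (SE) with ANIT to 1.61 ± 0.36 with GAL. CCl4 was the exception at 0.44 ± 0.25. Nfkb2 and Relb, the subunits of that pathway, rose with 6 and 5 compounds and most with ConA (log2 2.36 ± 0.36 and 3.68 ± 0.41). Traf6, an adaptor, rose with 5 compounds, by 0.51 ± 0.13 with MDA to 1.85 ± 0.29 with ConA. Nfkbia, the NF-kB inhibitor, rose with 5 and had log2 -0.75 ± 0.30 with CCl4 and 0.14 ± 0.35 with GAL.

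Of 26 other TNF receptor superfamily genes, 15 to 22 were tested per compound. Over the 7 compounds 44 of 128 tests were called higher and 15 lower. Higher calls numbered 11 with TAA and 10 with ConA. Both counts include calls that reached the filter's level only with the help of the treated mice, so compounds are not ranked by them. Tnfrsf10b, the mouse TRAIL receptor, averaged 0.180 CPM in Ctrl mice and passed the filter with 5 compounds through the treated mice. Its fitted log2 differences, from 2.78 with APAP to 6.53 with GAL, are therefore a description, as are the 4 higher calls of Eda2r and the 3 of Tnfrsf9. Tnfrsf23, a decoy TRAIL receptor, was called higher with 6 compounds, 3 of them through the treated mice, and its fitted log2 difference was at most 5.86 (ConA). Tnfrsf1a, the main TNF receptor, rose with 5, by at most 1.40 ± 0.15 (ANIT). Tnfrsf14, the receptor HVEM, fell with 6, from log2 -0.50 ± 0.18 with APAP to -1.57 ± 0.30 with TAA.

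The list of ASK and stress kinases had 18 genes, with 33 of 120 tests called higher and 11 lower. Map3k5, which encodes ASK1, the partner of the Map3k6 product, was called with no compound. Its log2 difference lay between -0.35 ± 0.28 (SE, GAL) and 1.04 ± 0.42 (ConA). The GADD45 genes, which bind and activate the related kinase MEKK4, were the members called most often. Gadd45a and Gadd45b rose with 5 compounds each, and Gadd45g with 5. All were highest with ConA, at log2 5.76 ± 0.92 (SE), 6.78 ± 0.64 and 6.59 ± 0.83. Gadd45b stood at 1.14 ± 0.82 with CCl4 and 1.92 ± 0.64 with GAL, which did not pass.

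The synaptotagmin list held 16 synaptotagmins other than Syt12 and 3 extended synaptotagmins, a separate family of membrane contact proteins. All 18 lower calls came from the 35 tests of synaptotagmins, Syt1 and Syt3 making up 13 of them. All 6 higher calls came from the 14 tests of extended synaptotagmins, 4 of Esyt2 and 2 of Esyt1. Syt1, a calcium sensor of vesicle release, was called lower with all 7 compounds, 3 of them through the vehicle mice, with fitted log2 differences from -1.12 (MDA) to -3.14 (TAA). Syt3, another calcium-binding member, was called lower with 6, 5 of them through the vehicle mice, with values down to -3.72 (GAL). These are given as a description.

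Immediate early genes other than Ier3 had the highest share of calls. Of 23 genes, 8 of 20 tested were called higher with ANIT, 13 of 22 with APAP, 8 of 20 with MDA, 20 of 22 with TAA, 10 of 22 with CCl4, 8 of 23 with GAL and 19 of 21 with ConA. Lower calls numbered 10 over the 7 compounds, 6 of them with CCl4 and 3 with GAL, and 5 in all without CIP mouse 7. The median log2 difference of the list was 3.82 with ConA and 2.86 with TAA, and 0.11 with GAL, against 0.08 over all genes there. Klf6, Maff and Myc, transcription factors, and Ccn2, a matricellular protein, rose with all 7 compounds. Maff rose by log2 2.17 ± 0.41 (SE) with MDA to 6.16 ± 0.33 with TAA, and Myc by 1.85 ± 0.41 with ANIT to 5.74 ± 0.51 with ConA. Atf3 and Fosl2, subunits of the AP-1 family, rose with 6 each and missed the threshold with GAL (2.11 ± 1.08 and 0.83 ± 0.33). Fosl1, another of that family, averaged 0.0507 CPM in Ctrl mice and passed the filter with 5 compounds through the treated mice, so its fitted log2 differences of 6.99 with APAP to 9.86 with TAA are a description, although they count among the higher calls. Ccn1, the relative of Ccn2, rose with 5 and fell with ANIT (-1.09 ± 0.36). Ier5 and Ier2, related to each other and sharing with Ier3 the immediate early response name, were both called in several groups. Ier5 rose with 6 compounds, by up to 3.55 ± 0.25 with TAA. Ier2 rose with TAA (1.03 ± 0.28) and ConA (2.55 ± 0.50) and fell with CCl4 (-1.79 ± 0.33) and GAL (-1.67 ± 0.41).

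**Figure D5:**
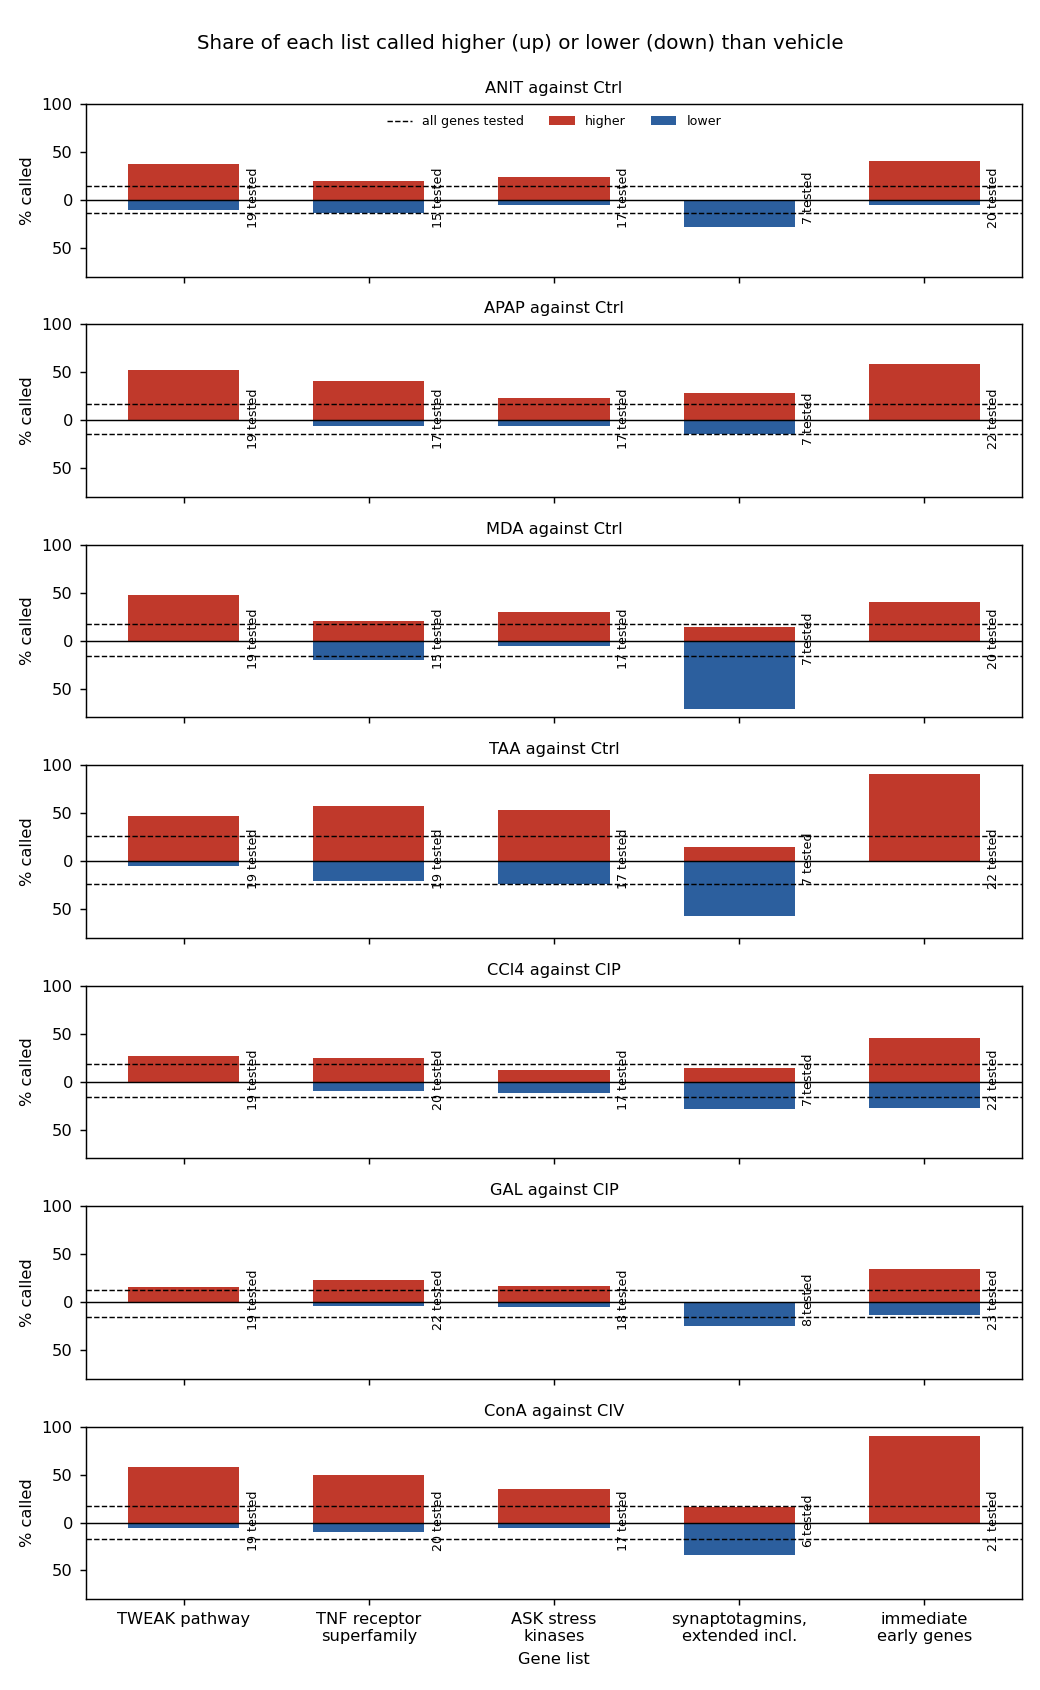
Share of the tested genes of each list called higher (red, up) or lower (blue, down) than vehicle by edgeR, for each compound; dashed lines give the same shares over all genes tested. Immediate early genes stand well above the dashed line with TAA and ConA. The synaptotagmin list, which includes the extended synaptotagmins, reaches below the lower dashed line with 6 compounds and not with APAP. Of its 18 lower calls, 13 reached the filter's level only with the help of the vehicle mice, so this reach is a description.

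Markers of other cells moved beside these genes. The 7 neutrophil markers summed to 2.07 to 61.1 CPM in Ctrl mice, 5.13 to 8.88 CPM in saline mice, 15.3 to 47.8 with ANIT, 13.2 to 273 with APAP, 8.42 to 133 with MDA, 162 to 841 with TAA, 10.6 to 76.6 with CCl4, 26.0 to 41.3 with GAL and 124 to 287 with ConA. The median sum was highest with TAA (312 CPM) and ConA (223 CPM), the groups with the most Ier3. For Ier3 their order was the other way, with medians of 67.4 CPM with TAA and 245 CPM with ConA. APAP mouse 1 had a sum of 39.0 CPM beside 209 CPM of Ier3, and APAP mouse 11 a sum of 273 CPM beside 49.5 CPM. Ly6g, a defining neutrophil gene, was at 0 in all 17 vehicle mice and in 19 of 40 treated mice. Mmp8 was at 0 in 12 vehicle mice and 1 treated mouse. The 7 monocyte and recruited macrophage markers summed to 2.07 to 32.2 CPM in Ctrl mice, 4.83 to 9.50 CPM in saline mice, 3.16 to 30.9 with ANIT, 11.2 to 84.0 with APAP, 3.47 to 48.2 with MDA, 27.0 to 75.6 with TAA, 14.5 to 55.5 with CCl4, 27.2 to 58.6 with GAL and 14.0 to 49.9 with ConA. Of 8 cholangiocyte and progenitor markers, Sox9 rose with 5 compounds, by log2 1.16 ± 0.27 (SE) with MDA to 4.86 ± 0.74 with ConA. Epcam and Cldn7 rose with ConA, by 3.07 ± 0.38 and 3.24 ± 0.70, and Epcam also with TAA (1.28 ± 0.34), whereas Krt19 was called with no compound. That list summed to at most 116 CPM in Ctrl mice and 69.9 CPM in saline mice, 26.5 to 43.7 CPM with ANIT, 64.9 to 219.9 with APAP, 39.9 to 75.6 with MDA, 66.0 to 109 with TAA, 38.6 to 127 with CCl4, 63.2 to 98.8 with GAL and 102 to 217 with ConA. Cftr was at 0 in 6 vehicle and 17 treated mice. Lyve1, a sinusoidal endothelial marker, rose with 5 compounds, by 1.55 ± 0.19 with MDA to 3.37 ± 0.20 with TAA, while 4 of the 6 endothelial markers were called lower with TAA and 4 with CCl4. Kupffer cell markers were all called lower with ConA (5 of 5), and hepatocyte markers all lower with CCl4 and with GAL (7 of 7 each). The part of these cells in the levels of the 5 genes was not tested.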

How the data were processed

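Liver RNA of 57 mice was sequenced as stranded poly(A) libraries. The deposited values are estimated counts per gene, made with Salmon 1.6.0 and R 4.1.3 on GRCm39, per the submitters' processing notes. Whether counting used strand, and the gene annotation, are not given in the sources used here. Across 5285 genes with 1 transcript, the smallest value above 0 went down with transcript length (rho = -0.93, a description across genes), as in length-corrected counts, so levels of different genes are not compared.

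The estimated counts were rounded and fitted with edgeR 4.0.16 (TMM scaling, filterByExpr, quasi-likelihood test, R 4.3.3), with Benjamini-Hochberg adjustment over all genes of a comparison and a threshold of 0.05. Each compound was compared with its route's vehicle, the 7 compounds against each other in 1 fit over 40 mice, and the saline groups against Ctrl. DESeq2 1.42.0, other scalings, no filter, all 17 vehicle mice, replicate numbers and leaving out single mice were the alternatives. Scripts were tested on simulated data. Within-group correlations used 100000 permutations, two-sided.

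The 5 genes, the gene lists and the marker lists were chosen with earlier results of these data known. Named genes were the 5 and, for each, the 3 with the highest r and the annotated neighbours. List genes were named if called with at least 5 of 7 compounds in 1 direction. Others were tied to a member as its ligand, relative or namesake (Tnfsf12, Map3k5, Ier2, Ier5). Tnfrsf9, Eda2r, Esyt1 and Esyt2 meet neither rule and are named to account for calls of their lists. Klf13 is named as an overlapping gene, and marker genes come from the marker lists. Of 54307 identifiers, 51482 had a symbol. The labels do not say more of the mice than that each is a separate animal sample, so p-values measure the spread between these samples.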

Additional observations from a re-analysis of the deposited data

Results flagged for a closer look

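Of 35 sets of values, 5 genes in 7 treated groups, 5 held a highest mouse whose gap to the next exceeded Dixon's 95% critical value for the group size. Chance flags about 1 in 20 where values are normally distributed. This was not checked for these CPM values, so no excess is read from the count. Tnfrsf12a was 404 CPM in ConA mouse 12, and the next mouse had 219 CPM. Map3k6 was 8.91 CPM in CCl4 mouse 11, against 6.44 CPM in the next. In APAP mouse 1 E030018B13Rik was 18.2 CPM and Ier3 209 CPM, against 4.04 and 74.2 CPM in the next mouse. Ier3 was 161 CPM in TAA mouse 7, against 73.9 CPM in the next.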

How the results depend on the processing

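The number of pairs of compounds called, of 21, depended on several choices. With each compound less its route vehicle it was 6 for Map3k6, 1 for Syt12, 7 for E030018B13Rik (13 in the fit of the report, most of them from groups in which it is near 0) and 8 for Ier3. For Syt12 it was 5 with no filter and 5 with number range (1 to 4, or above) as covariate. Leaving out 1 mouse at a time gave 12 to 17 for E030018B13Rik, 14 to 17 for Ier3, 10 to 13 for Map3k6, 4 to 10 for Syt12 and 5 to 11 for Tnfrsf12a. Against all 17 vehicle mice, lower calls numbered 15 in the TWEAK list and 18 in the ASK list, and DESeq2 gave 8 in the TWEAK list. Lower calls of immediate early genes numbered 4 with library totals, 6 with the covariate and 5 to 13 with 1 mouse left out. With library totals 45 of 281 list calls were lost, and with median-of-ratios size factors 1; in neither did one of those calls change sign. Among pairs of members, those that passed numbered 2 in mice numbered 1 to 4, 3 in mice with higher numbers, 3 without the APAP mice, 4 without the 2 farthest mice, 0 without both, 2 without the APAP, CCl4 and GAL mice and 0 without those and the 2 farthest, the settings without groups being chosen after the data were seen. Without the APAP mice r turned negative for E030018B13Rik with Ier3 (-0.63), with Tnfrsf12a (-0.22) and with Map3k6 (-0.024), and without the CCl4 and GAL mice too it was -0.68, -0.24 and -0.013. The cause was not tested.

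In no comparison with 3 or more shared replicate numbers was the correlation of deviations over 0.1 in every pair, the limit used, so the numbers were not taken as pairing. With a replicate block, which could not be fitted for CCl4 or ConA against vehicle, Syt12 was called in 4 pairs. Higher and lower list calls under the block were 19 and 0 for TWEAK, 19 and 4 for TNF receptors, 15 and 5 for ASK and 36 and 2 for immediate early genes, and 1 higher for synaptotagmins. Of 95 TWEAK tests in that edgeR fit, 5 were lower at an unadjusted p under 0.05. E030018B13Rik is limited by depth in vehicle mice, and each saline group by its 2 mice.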
